A study of Mus musculus with 3 samples.

Results

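A small RNA has a 5′ end, where it begins, and a 3′ end, where it stops, and many small RNAs can begin at 1 place in the genome and stop at different places. The sequences described here are those that begin at a 5′ end with 5 or more listed 3′ ends. They were chosen by measured values: in the deposited list, sequences with the same chromosome, the same first 18 letters and the same starting position were put together, and a 5′ end became a member when 5 or more distinct sequences shared it. This gave 38372 members among 1526786 5′ ends (2.51%), 19363 on the plus strand and 19009 on the minus strand. The members hold 223952 of the 2219118 listed sequences (10.1%). The comparison group is the 1148822 5′ ends with 1 listed sequence, and 339592 5′ ends with 2 to 4 sequences lie between.

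The list comes from small RNAs immunoprecipitated from C57BL/6 mouse testes with Tdrd1 or Mili, in 3 libraries, 1 per group. They are Tdrd1 complexes of adult testes, Mili complexes of adult wild-type testes, and Mili complexes of testes from Tdrd1 knockout mice at 15 days after birth, so that the age given differs between knockout and wild type. The labels do not say how many animals were pooled or which cells the knockout testes still held, and RNA of about 28 to 30 nt was taken from a gel in each library. The list pools the 3 libraries with no read number, no library and no strand, so that no value below can be given by library, no replicate exists and the depth behind a member is unknown.

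Piwi-interacting RNAs (piRNAs) are small RNAs of animal germ cells that guide Piwi proteins to transposons and other transcripts. Mili (Piwil2) is a mouse Piwi protein that prefers piRNAs starting with U, and Tdrd1 is a Tudor-domain protein that binds it. In the usual scheme a nuclease cut sets the 5′ end, the longer precursor is held by the Piwi protein, an exonuclease (Pnldc1, with Tdrkh) shortens its 3′ end, and Henmt1 methylates the final nucleotide. A 5′ end is thus known to be sharper than a 3′ end, and in this scheme the 3′ ends at a single 5′ end mark where the shortening stopped. Whether the listed 3′ ends arose in this way was not tested.

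The members with most sequences show what the class looks like, and they are printed because everything below rests on this layout. The list writes T for U. Each line is the longest listed sequence of a member, 5′ to 3′, from the list itself, and capitals mark every letter at which a listed sequence stops. The first line has the most sequences of all, the next 2 are among the 4 members with 14, the fourth has a gap in its lengths, and the last 3 are the members with most sequences among those starting with A, C and G outside annotated exons.
chr4:61882285-61882316, minus strand, 15 sequences: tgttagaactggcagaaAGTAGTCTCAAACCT
chr17:27473444-27473475, plus strand, 14 sequences: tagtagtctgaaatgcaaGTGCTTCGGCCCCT
chr8:94713557-94713587, plus strand, 14 sequences: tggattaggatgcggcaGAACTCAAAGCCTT
chr15:78494970-78495002, minus strand, 13 sequences: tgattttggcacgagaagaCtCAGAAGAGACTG
chr8:112646911-112646941, plus strand, 13 sequences: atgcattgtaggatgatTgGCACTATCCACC
chr9:67589656-67589686, plus strand, 13 sequences: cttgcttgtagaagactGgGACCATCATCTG
chr9:67570649-67570679, minus strand, 12 sequences: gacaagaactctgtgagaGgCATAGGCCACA

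The longest set, on chromosome 4, stops at every letter from 18 to 32 nt. The member on chromosome 15 stops at 20 nt and at every length from 22 to 33 nt, with 21 nt missing. None of these 7 members matched an annotated exon, and 6 of them lie in windows very rich in listed sequences, the chromosome 4 member being the exception. Positions follow the deposited ranges, counted from 1 on NCBI mouse build 37 (mm9).

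The number of sequences per member fell off quickly. There were 20281 members with 5 sequences, 9903 with 6, 4636 with 7, 2083 with 8, 923 with 9 and 546 with 10 or more, up to 15. Just below the threshold lie 40831 5′ ends with 4 sequences, of which 78.7% started with U, next to 81.3% of those with 5. These numbers are what chose the members, so they describe the class and support nothing. More reads at a 5′ end, or detection in more libraries, would also add listed 3′ ends, and their part in any result below was not tested because the list has no read numbers.

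Lengths were packed around the piRNA size. A sequence of 27 nt was listed for 95.5% of members, 26 nt for 93.1%, 28 nt for 86.4%, 25 nt for 75.4% and 29 nt for 70.4%. Both sides dropped away from there, to 47.6% at 24 nt and 27.3% at 23 nt on the short side and to 45.9% at 30 nt and 17.2% at 31 nt on the long side. In the comparison group the only sequence was most often of 27 nt (27.8%), 26 nt (21.8%) or 28 nt (20.4%). The median shortest sequence of a member was 24 nt and the median longest was 29 nt. Every length in between was listed for 62.6% of members (95% interval 62.1 to 63.1%). Members were chosen for having 5 or more sequences, nearly all in a narrow range of lengths. These spans are thus partly built into the choice and are a description. The gel cut of about 28 to 30 nt also limited the lengths that could be listed, in members and comparison group alike. One length was missing in 22.6%, 2 in 8.04% and 4 or more in 3.26%. Intervals here and below were computed by the Clopper-Pearson method and cover no more than counting error, and neighbouring 5′ ends of the same transcript are not independent.

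The first base was the clearest difference from the comparison group. U stood first in 83.3% of members (82.9 to 83.7%), in 73.3% of 5′ ends with 2 to 4 sequences and in 61.6% of those with 1 sequence (61.5 to 61.7%). The rule used the letters to group sequences and not which letter came first. The share climbed with the number of 3′ ends, from 71.2% at 2 sequences and 76.0% at 3 to 83.8% at 6, 86.5% at 7, 89.1% at 8, 88.8% at 9 and 90.7% at 10 or more. A led 7.66% of members against 17.7% of 5′ ends with 1 sequence, C led 4.25% against 11.1%, and G led 4.76% against 9.56%. Among members that did not start with U A was as common as in the comparison group (46.0% against 46.2%), while G was more common (28.6% against 24.9%) and C less common (25.5% against 28.9%).

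The climb of the first-base share differed with the place of origin. Windows of 20 kb were ranked by their number of listed sequences, and the 100 richest were set apart. There U led 41.7% of 5′ ends with 1 sequence, 72.1% of members with 5 and 91.4% of those with 10 or more. At 5′ ends sense to protein-coding exons outside these windows it rose from 56.2% with 1 sequence to 90.3% with 5. The 5′ ends outside these windows that matched no exon began at a higher share, 74.4% (74.2 to 74.5%), and their members reached 84.9% (83.5 to 86.2%). There the share went no higher with more 3′ ends: it was 76.9% (69.8 to 83.0%) for the 169 members with 8 or more sequences, below the 86.2% (84.5 to 87.8%) of the 1716 members with 5.

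Beyond the first base, G at position 2 and A at position 5 were more common in members. The start UG was found in 36.1% of members against 23.1% of 5′ ends with 1 sequence, and UA in 26.1% against 17.4%, whereas UC (9.95% against 9.79%) and UU (11.2% against 11.3%) were about as common in both. Among 5′ ends starting with U, 43.3% of members (42.8 to 43.9%) had G at position 2, against 37.6% (37.5 to 37.7%). A at position 5 was found in 48.1% of members starting with U (47.5 to 48.6%) and in 40.4% of the comparison group (40.3 to 40.5%). The same holds within each place: at protein-coding exons outside the rich windows A at position 5 was found in 52.5% against 37.6%, in the rich windows in 43.7% against 30.2%, and at places with no exon match in 54.8% against 45.0%.

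A at position 10 is the mark of piRNAs made by ping-pong amplification, where a bound piRNA directs the cut that forms the 5′ end of a piRNA on the other strand, at an overlap of 10 nt. It was found in 33.8% of members (33.3 to 34.3%) and 32.02% of 5′ ends with 1 sequence (31.9 to 32.1%). Position 10 did not stand out among its neighbours: A was found in 31.3% of members at position 9, 34.4% at position 11 and 35.0% at position 12, and the last 2 exceeded their comparison values (31.5% and 32.2%) by more than position 10 did. Among members that did not start with U, where the mark is looked for, A at position 10 was found in 36.6% (35.4 to 37.8%), against 32.2% (32.1 to 32.4%) in the comparison group. Neighbouring positions of the same members had 32.2% (position 9), 35.1% (position 11) and 35.05% (position 12), against 31.96%, 31.8% and 31.9% in the comparison group. Position 10 thus had the widest difference of these positions in members not starting with U. Its interval overlapped those of position 11 (33.9 to 36.3%) and position 12 (33.9 to 36.2%). Position 5 differed more, with 48.0% against 37.9%.

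The overlap of opposite 5′ ends gives a second view of the same cycle. Of the members, 71 had a 5′ end of 2 or more sequences on the other strand at an overlap of 10 nt, 0.185% (0.145 to 0.233%). The other 19 overlaps from 1 to 20 nt were found in 14.4 ± 3.48 members (SD over overlaps), from 8 to 20, so the 10-nt overlap was 4.94 times their mean. For 5′ ends with 2 sequences the same ratio was 2.12, with 3 it was 2.52 and with 4 it was 3.45. Of the 71 members, 67 lay in the 100 richest windows. Outside these windows 4 members had such a partner, and other overlaps there reached 4 as well. U led 63 of the 71, and of the 8 that started with another base 6 had A at position 10. Pairs at 10 nt were thus few among 5′ ends of 2 or more sequences. No strand could be read for the 1148822 5′ ends with 1 sequence, so they were not searched as partners and the shares are lower bounds.

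Members often lay next to each other on the same strand. A 5′ end of 2 or more sequences lay 1 to 3 nt downstream of 63.95% of members (63.5 to 64.4%), against 26.6% of 5′ ends with 2 sequences (26.4 to 26.8%). Another member lay 1 nt downstream of 4842 members, 2 nt downstream of 5022 and 3 nt downstream of 4469. The number fell to its lowest, 654, at 23 nt and rose again to 871 at 39 nt. Distances of about the length of a piRNA did not form a sharp peak: there were 710 at 26 nt, 750 at 27 nt, 760 at 28 nt, 751 at 29 nt and 785 at 30 nt.

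When members no more than 3 nt apart were joined into runs, 22280 members (58.1%) stood alone and 16092 fell into 5678 runs. Members that stood alone started with U in 91.5%, and those in runs in 72.0%. Within runs the member with most sequences started with U in 87.1%, and the 10414 other members in 63.8%. The 59 runs of 10 or more members started with U in 37.2% of their 696 members. A U start thus went with standing alone, and the place differed too: 42.1% of members that stood alone and 73.6% of those in runs lay in the 100 richest windows.

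The run that holds the member with most sequences shows this stepping. It has 16 members at 5′ ends from 61882312 to 61882329 on the minus strand of chromosome 4, outside the 100 richest windows and outside annotated exons. The following 6 of its members are printed from downstream to upstream, with capitals as above. The most downstream member, at 61882312 with 5 sequences, is left out.
5′ end at 61882313, 11 sequences: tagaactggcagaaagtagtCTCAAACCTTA
5′ end at 61882314, 7 sequences: ttagaactggcagaaagtagtctCAAACCT
5′ end at 61882315, 6 sequences: gttagaactggcagaaagtagtCTCAAA
5′ end at 61882316, 15 sequences: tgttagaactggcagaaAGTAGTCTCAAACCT
5′ end at 61882317, 6 sequences: atgttagaactggcagaaagtaGTCTCA
5′ end at 61882318, 9 sequences: tatgttagaactggcagaaaGtAGTCTCAA
Moving by 1 letter changed the number of 3′ ends from 6 to 15 and back to 6. In this stretch the 4 members that start with U had 7 to 15 sequences, and those that start with G or A had 6 each. Elsewhere in the run this order did not hold, since 2 members that start with C had 9 sequences each.

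The largest run, 18 members from 27482785 to 27482803 on the plus strand of chromosome 17, lies in one of the 100 richest windows and crosses a TG repeat. The 5 lines below show how its 3′ ends lay: the first 2 members begin 1 nt apart and stop at the same 6 positions, while those further on stop further on.
5′ end at 27482785, 6 sequences: tgtgtgtgtgtaggacaatggaaGGGAAC
5′ end at 27482786, 6 sequences: gtgtgtgtgtaggacaatggaaGGGAAC
5′ end at 27482789, 10 sequences: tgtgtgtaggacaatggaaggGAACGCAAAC
5′ end at 27482795, 10 sequences: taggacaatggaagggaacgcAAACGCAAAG
5′ end at 27482803, 11 sequences: tggaagggaacgcaaacgCaAAGACAAAGG
The mean length of these 5 members was 26.5, 25.5, 26.5, 26.5 and 24.9 nt, and over the 18 members it went from 24.5 to 27.5 nt. Over all 4469 pairs of members 3 nt apart, the downstream member was 0.26 ± 1.05 nt shorter in mean length (SD over pairs), so its mean 3′ end lay 2.74 nt further on. Pairs 1 nt apart shared 5.05 lengths and 4.96 3′-end positions on average, pairs 3 nt apart 4.92 and 3.51, and pairs 6 nt apart 4.81 and 1.13. Members were chosen for having 5 or more lengths, nearly all in a narrow range, so many shared lengths are built into the choice and these values are a description.

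Mean length went with the first base and the place. Averaged over the sequences of each member, length was 26.83 ± 1.17 nt for members starting with U (SD over members), 26.23 ± 1.16 nt with A, 26.41 ± 1.19 nt with C and 26.21 ± 1.09 nt with G. It was 26.21 ± 1.06 nt in the 100 richest windows and 27.40 ± 0.99 nt outside them. A listed 30-nt sequence was found for 33.6% of members in the rich windows and 64.8% of members sense to protein-coding exons elsewhere. The 24-nt sequence went the other way, with 66.5% and 19.8%. All members together averaged 26.74 ± 1.19 nt and the comparison group 27.24 ± 1.54 nt, but at protein-coding exons outside the rich windows the order turned, with 27.52 ± 0.91 nt for members and 27.35 ± 1.54 nt for 5′ ends with 1 sequence.

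The base that follows a 3′ end was read from a longer sequence of the same member. U followed 26.5% of listed 3′ ends (26.3 to 26.7%) and 22.5% of the lengths inside the same span at which no sequence stopped. U was not alone in this: A followed 28.0% and 23.8%, C 22.2% and 28.3%, and G 23.3% and 25.4%. The letter at the position itself differed as well: it was U at 22.7% of listed ends and 29.6% of unlisted lengths. A wider set took every length of each member from 18 nt to below its longest sequence, whether or not a sequence stopped there. U followed 22.3% of these lengths, and 23.1% of those of 23 to 28 nt. This set holds many lengths shorter than the member's shortest sequence, so its mix of lengths differs from that of the listed ends. The difference for U was widest for short sequences. At 18 to 22 nt U followed 42.3% of listed ends against 20.1% of the same positions in every member. It followed 63.8% of the 425 ends at 18 nt, 58.9% at 19 nt, 52.0% at 20 nt and 33.3% at 22 nt. At 23 to 28 nt, where most sequences lie, U followed 24.9% of listed ends (24.7 to 25.1%) and 21.2% of unlisted lengths (20.5 to 21.9%). Taken singly, every length from 23 to 27 nt had more U after listed ends, with 25.5% against 19.99% at 24 nt, 23.5% against 18.3% at 26 nt and 25.2% against 22.1% at 27 nt. For 23 to 24 nt most of this difference was U followed by C, as given below. At 29 to 31 nt it followed 31.4% of listed ends and 31.2% of unlisted lengths, which did not differ beyond their intervals. Pooled over 24 to 31 nt the difference was 1.55 percentage points (0.85 to 2.25) instead of 4.03, in a pool where many of the unlisted lengths are of 28 to 30 nt, at which U was frequent after listed and unlisted lengths alike.

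The 2 letters after a short sequence were unlike those at other lengths. UC followed 16.1% of listed ends of 18 to 22 nt, against 3.45% of the same positions in every member. At 23 to 24 nt the shares were 6.96% and 4.44%, and at 25 to 28 nt they were 5.82% and 5.64%. After unlisted lengths of 23 to 24 nt UC was found in 2.30%. The other pairs differed less there between listed and unlisted lengths: UA 4.72% and 4.38%, UG 8.60% and 8.06%, UU 6.03% and 5.94%. For 25 to 28 nt UC was found after 5.82% of listed and 5.50% of unlisted lengths, and UG after 6.49% and 4.46%. Sequences under 23 nt lie well below the range cut from the gel, and 18.6% of members had at least 1 of them, 28.4% in the rich windows and 6.42% outside. The sources used here do not give the letters of the 3′ adapter. The part that trimming of adapter letters has in these short ends, or in the UC after ends of 23 to 24 nt, was not tested. Membership rests little on sequences under 23 nt: 95.3% of members had 5 or more sequences of 23 nt or longer.

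Members were concentrated in few places. The 100 richest windows held 55.3% of members and 8.81% of 5′ ends with 1 sequence. Windows rich in listed sequences hold members by construction, so this is a description. Members were found in 4656 of 62069 windows with a listed sequence, and 2241 of those windows had 1 member. The window with most members, chr17:27460001-27480000, had 951, which made up 16.3% of its 5′ ends, and 92.2% of them lay on the plus strand. The next window, from 27480001, had 821, all on the plus strand, and the one before it, from 27440001, had 805, all on the minus strand. The strand of the members thus changes between neighbouring windows; some piRNA clusters of the testis are known to be transcribed in both directions from a shared start. A window on chromosome 9 from 67560001 followed with 691, all on the minus strand.

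Noncoding genes in these windows carried many members in the sense direction. Gm49794, a long noncoding RNA gene whose matching members run from 27491764 to 27503624 on chromosome 17, had 468 of its 2953 5′ ends as members (15.8%). On the same chromosome Gm10505 had 210, from 27462053 to 27481725. Gm21269 on chromosome 7 had 279 members (11.3%), 1700001L05Rik on chromosome 15 had 218 (15.6%) and 1700029M20Rik on chromosome 4 had 99 (14.2%). U led 72.0% of the members of Gm49794 and 81.4% of those of Gm21269. Gm42418, a noncoding gene on chromosome 17 (39983981 to 39985147) in a window that also holds an annotated ribosomal RNA, stood apart and was singled out after its values were seen. Members were 86 of its 364 5′ ends (23.6%), and U led 17.4% of them. It holds a run of 16 members from 39984673 to 39984688, of which 3 start with U.

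By annotation, 36.8% of members (36.3 to 37.3%) were sense to exons of protein-coding genes, against 52.9% of 5′ ends with 1 sequence. Another 53.5% matched no exon (41.2% in the comparison group), 7.34% were sense to other noncoding genes (2.84%) and 1.58% were antisense only (2.34%). The direction for protein-coding exons turns outside the 100 richest windows, where 77.3% of 17153 members and 57.4% of 5′ ends with 1 sequence were sense to them. With more 3′ ends the protein-coding share fell, from 44.6% of members with 5 sequences to 11.6% of those with 8 or more. Members at protein-coding exons started with U in 91.4% and had a mean length of 27.50 ± 0.92 nt.

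Within messenger RNAs the 3′ untranslated region supplied most members. It held 62.3% of members matched to mRNA parts, against 50.1% of 5′ ends with 1 sequence. Coding sequence held 33.7% against 45.1%, and 5′ untranslated regions held 3.99% against 4.79%. The 3′ untranslated share stepped up with the number of 3′ ends, from 54.0% at 2 sequences to 57.2% at 3, 60.2% at 4 and 68.6% at 8 or more. In members found only in 3′ untranslated regions U led 94.8%, against 63.9% with 1 sequence, and in those found only in coding sequence 87.6% against 48.7%.

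Among the protein-coding genes with most members were Abl2, a tyrosine kinase, with 99 of 1159 5′ ends (8.54%), and Pou2f1, a POU-domain transcription factor, with 92. All members of Abl2 and Pou2f1 lay in the 3′ untranslated region. The gene 1700006A11Rik had 84, Cbl, a ubiquitin ligase, had 77, and Eif4ebp2, a repressor of the translation factor eIF4E, had 76. Trim71, an RNA-binding protein of early development, had 74, Ddx19b, an RNA helicase of mRNA export, had 73, Nemp1, a protein of the inner nuclear membrane, had 65 and D10Wsu102e had 63. U led 94.9% of the members of Abl2 and 71.4% of those of 1700006A11Rik, the lowest of these 9 genes. Members were 15.6% of all 5′ ends of 1700006A11Rik and 2.16% of those of D10Wsu102e, which had 2916 5′ ends in all. Most of the 84 members of 1700006A11Rik were matched to no mRNA part: 16 lay in its 3′ untranslated region, 3 in coding sequence and 1 in its 5′ untranslated region.

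Genes of the piRNA pathway and markers of testis cell types were looked up next. Of 21951 protein-coding genes, 3343 (15.2%) had a member, and 1.74% of the 5′ ends sense to such genes were members. Of 20 genes of the piRNA pathway 9 had one, with 21 members in all, 1.34% of the list's 1568 5′ ends beside the 1.74% over all genes. With so few members this difference was not tested. Piwil2, which encodes Mili itself, had 6 of 199 5′ ends, with up to 9 sequences, Mov10l1, the helicase that hands precursors to Piwi proteins, had 4 and Mael, a piRNA factor of the nuage, had 3. Tdrd1 had 2 of 96, both starting with U. Pnldc1 and Henmt1, which finish the 3′ end, had none, but with 41 and 37 5′ ends under 1 would be found at the share over all genes. Of the spermatogonial markers 7 of 8 had a member, 15 members in all and 1.81% of their 5′ ends, near the share over all genes. Of the meiotic markers 4 of 8 had one, led by Sycp3, a protein of the synaptonemal complex, with 9 and by Tex101 with 7, and members were 3.54% of the list's 5′ ends. None of 10 spermatid markers (138 5′ ends) or 6 Leydig cell markers (74 5′ ends) had a member, which is too few 5′ ends to show a difference from the share over all genes, and of 8 Sertoli cell markers Ctsl alone had 2. Longer and more abundant transcripts have more 5′ ends, and the part of that in these counts was not tested.

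A few members begin exactly at the 5′ end of an annotated microRNA. This was found for 29 members (0.0756%, 0.0506 to 0.109%) and for 74 5′ ends with 1 sequence (0.00644%). They are shown because their lengths pass the size of the known microRNA. The lines give the mature sequences from RefSeq (GRCm38.p6), with the seed, bases 2 to 8, in capitals. The first 4 belong to the let-7 family, which share the seed GAGGUAG although let-7d starts with A. The 2 after them share the seed AAAGUGC.
let-7a-5p: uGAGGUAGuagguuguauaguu
let-7b-5p: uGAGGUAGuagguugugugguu
let-7f-5p: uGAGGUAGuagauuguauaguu
let-7d-5p: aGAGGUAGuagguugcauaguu
miR-93-5p: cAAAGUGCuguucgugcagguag
miR-106b-5p: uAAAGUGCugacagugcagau
miR-21a-5p: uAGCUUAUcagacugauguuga
miR-7210-5p: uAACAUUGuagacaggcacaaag

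At the 5′ end of let-7b 6 sequences of 19 to 25 nt were listed, around its mature 22 nt. At let-7d 6 of 20 to 25 nt were listed, and at miR-21a 5 of 21 to 26 nt. At let-7a the 5 sequences ran from 24 to 29 nt, at let-7f 8 ran from 23 to 30 nt, and at miR-106b 6 ran from 26 to 31 nt. None of these 3 thus had a sequence of the mature length listed at this 5′ end. Each sequence is listed at a single place, so one that also matches another gene copy may be listed there instead, which was not tested. The mature length was listed at 21 of the 29 members, and all 29 had a longer one, by 3 to 10 nt with a median of 6 nt. Members were chosen for 5 or more lengths, and RNA of about 28 to 30 nt was taken from the gel. Longer sequences are thus partly built in, and these lengths are a description. The longest listed sequence lay wholly within the RefSeq hairpin of that microRNA at 24 of the 29 members, let-7a, let-7b, let-7d, let-7f, miR-21a, miR-93 and miR-106b among them. The 5 whose longest sequence did not (at miR-7217-3p, miR-7222-3p, miR-7223-5p, miR-7230-3p and miR-7232-3p) all lie in the 100 richest windows. Of the 29, 11 lie in the 100 richest windows, among them the 5′ end of miR-7210 with 12 sequences from 19 to 32 nt on chromosome 14. The other 18 lie elsewhere and include miR-191, miR-423 and miR-25. U led 18 of the 29.

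Structural RNAs gave 79 members in the sense direction (0.206%, 0.163 to 0.257%), against 0.0652% of 5′ ends with 1 sequence, and U led 43.0% of them. By gene type, 39 were sense to small nuclear RNA genes, 18 to other small RNAs such as Rn7sk (7 members) and the Y RNA Rny3 (5), 13 to small nucleolar RNAs such as Snord118 (6), and 5 to ribosomal RNA genes. Their mean length was 26.93 ± 1.32 nt, within 1 SD of the mean of all members.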

How the data were processed

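Sequences bound to Tdrd1 or Mili were listed by the authors in 1 deposited table for the 3 libraries, with sequence, chromosome and range (text fields, neither counts nor levels) on NCBI build 37 per the file headers and mm9 per the submitters' processing notes. The sources used here do not name the aligner, its mismatches, adapter removal or the treatment of multiple positions. Strand came from which end of the range the grouped sequences share, and was the gene strand in 99.8% of sense matches. Of the members, 0.951% share their first 18 letters with another listed place. Genes were assigned by exact match of the first 24 letters (the whole sequence if shorter) of the longest sequence to GENCODE vM21 transcripts (GRCm38) on the same chromosome, with no coordinates taken from that build. The steps ran in Python 3.11.15 with numpy 2.4.6, pandas 2.3.3 and scipy 1.17.1, and the grouping, partner and matching steps were tested on simulated sequences. Named members are the 10 with most sequences and, for each first base, the one with most outside exons, of which a part is printed; named genes are the 10 protein-coding (1 of them is not reported here) and 5 noncoding genes with most members and the listed marker genes. Genes, runs and neighbours shown beyond these were picked after their values were seen. The members and lists were chosen with earlier results of these data known. With 1 pooled list no test across libraries was run, and library comparisons were not computed.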

Additional observations from a re-analysis of the deposited data

Results flagged for a closer look

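Some members overlap genes of other small RNAs, outside the comparisons above. They are the 29 members that begin at the 5′ end of a mature microRNA and the 79 members in the sense direction of structural RNA genes. Of the 29, 11 lie in the 100 richest windows and 8 hold only sequences longer than the mature form, and whether they are microRNAs was not tested. With 1 list for the 3 libraries, the library they came from cannot be told apart.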

How the results depend on the processing

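No paired analysis was possible because the pooled list carries no samples. Of 34 alternative values 7 stayed within the interval of the reported value, 2 counts of members (37657 with the first 22 letters, 33319 with 24 to 32 nt only) stayed within 1.5 times the reported 38372, 24 moved beyond these bounds and 1 changed direction. The one that changed direction is the protein-coding share: members minus 5′ ends with 1 sequence was -16.1 percentage points, 19.9 outside the 100 richest windows, -9.47 with neighbours within 3 nt counted once and -41.3 with 8 or more sequences. Members numbered 79203 at 4 or more sequences and 3552 at 8 or more. The first-base U difference of 21.7 points was 19.3 at 4 or more, 27.6 at 8 or more, 23.5 with 24 to 32 nt only, 10.1 against 2 to 4 sequences, 26.2 outside the rich windows, 28.98 with neighbours counted once, 22.2 with each sequence counted and, chosen after seeing the data, 36.5 inside the rich windows. Counting neighbours once kept the member with most sequences of each run, and the comparison group was not joined. Within runs that member started with U in 87.1% and the others in 63.8%, so the value of 28.98 is partly built into which member was kept. The U difference after a 3′ end, 4.03 points, was 2.86 outside the windows, 9.34 at 8 or more and, chosen after seeing the data, 1.55 at 24 to 31 nt and 0.18 at 29 to 31 nt. Gap-free lengths were found in 65.6% outside the windows and 56.4% at 8 or more. The rich-window difference of 46.5 points was 38.7 with neighbours counted once, 74.7 at 8 or more and 45.8 with windows ranked by 5′ ends. A 10-nt partner was found for 0.0233% outside the windows and 0.394% at 8 or more. A 5′ end 1 to 3 nt downstream was found for 49.4% outside the windows, an alternative chosen after seeing the data. The cause of these shifts was not tested. Depth and read numbers are unknown, so that no member's 3′ ends can be weighed by abundance.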
